A study of Mus musculus with 12 samples.

Results

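Antibodies that stimulate CD40 and antibodies that block IL-1R1 were compared directly in mouse pancreatic ductal adenocarcinoma (PDAC) tumours grown under the skin. PDAC is a cancer of the pancreatic duct epithelium with abundant stroma. The comparison uses 6 of the 12 bulk RNA sequencing libraries of the series, chosen by their treatment labels: 3 tumours given an agonistic CD40 antibody alone (CD40 agonist) and 3 given an antibody against IL-1R1 alone (anti-IL-1R1). Both antibodies were injected repeatedly into the peritoneum. The 3 untreated tumours serve as a reference. The 3 tumours given both antibodies entered the choice of genes tested, the scaling and the estimate of the spread. Otherwise they appear only in a correlation between libraries and in a run that left out muscle-rich libraries. Strain, age and sex of the mice, tumour line, antibody clones, doses and time of sampling are not stated in the labels, and no control antibody is named for the untreated group. Whether replicates are different mice is not stated either. The p-values therefore reflect the spread among these libraries alone, and that spread may be technical.

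CD40 is a receptor of the tumour necrosis factor family on dendritic cells, macrophages and B cells. Its ligand on activated helper T cells, or an agonistic antibody in its place, drives NF-kB signalling, and the stimulated cell raises co-stimulatory molecules, makes interleukin 12 and becomes able to prime T cells. IL-1R1 is the signalling receptor for IL-1 alpha and IL-1 beta and acts through MyD88 and NF-kB to induce chemokines, colony-stimulating factors and acute-phase genes. Both receptors therefore feed into NF-kB, the first antibody by switching a receptor on and the second by preventing a receptor from being used. Interferon gamma, made mainly by T cells and natural killer (NK) cells, induces its own set of genes, among them the chemokines CXCL9 and CXCL10 and the machinery of antigen presentation.

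The 6 libraries held 27.8 to 47.9 M reads in genes. Levels are CPM, the counts of a gene relative to the TMM-scaled total of its library, and values of a group are given in the order of replicates 1, 2 and 3. Markers of the labelled tissue were present in the 6 libraries: the ductal keratin genes Krt8, Krt18 and Krt19 ran from 1208 to 1784, 674 to 1131 and 643 to 1009 CPM, the stromal collagen gene Col1a1 from 1720 to 4713 CPM, and the leukocyte gene Ptprc from 16.7 to 70.6 CPM. The ductal and epithelial markers Cdh1, Sox9 and Muc1 were at 364 to 560, 136 to 210 and 29.0 to 48.3 CPM, and the epithelial markers Epcam and Cldn4 were low, at 1.70 to 17.5 and 0.455 to 1.93 CPM. CD40 agonist libraries did not form a uniform group. CD40 agonist replicate 3 lay above all 3 anti-IL-1R1 libraries in 16.6% of all tested genes, against 24.7% and 26.9% for replicates 1 and 2, and for most immune lists it lay near the anti-IL-1R1 libraries. CD40 agonist replicate 2 stood apart by its skeletal muscle transcripts, with a list level of 6.81 in mean log2(CPM + 0.5) against 0.00 to 2.16 in the other 5 libraries. Whether the tumour labelled CD40 agonist replicate 3 matches its treatment label was not tested, and every CD40 agonist mean and call takes the label as given. List medians without each of these libraries are given after the lists.

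Of 19436 genes tested, edgeR's quasi-likelihood test called 0 genes between CD40 agonist and anti-IL-1R1 at an adjusted p under 0.05, and the lowest adjusted p was 0.590. At an unadjusted p under 0.05 there were 729 genes with a higher level in CD40 agonist tumours (3.75% of those tested) and 176 with a lower level (0.906%). DESeq2, run on the same 12 libraries as an alternative, called 132 genes higher (0.679%) and 5 lower (0.0257%), or 0.732% and 0.0277% of the 18037 genes to which it gave an adjusted p, and limma voom called 0. Without CD40 agonist replicate 3, edgeR called 152 genes higher (0.74% of 20537 tested) and 1 lower (0.00487%), and leaving out any other library of the 6 gave 0 calls. With a replicate block on the 6 libraries edgeR called 6 higher (0.0336%), namely Cxcl9, Iigp1, Gbp3, Gbp2, Tgtp2 and Tgtp1, on 2 residual degrees of freedom. DESeq2 on 12 libraries and edgeR without CD40 agonist replicate 3 shared 103 genes, which was 75.2% of the 137 genes of the first and 67.3% of the 153 genes of the second. These runs use the same counts, so the overlap is not independent support. Of the 6 genes called with the replicate block, 3 were among the first and 0 among the second. In 131 of the 132 genes that DESeq2 called higher, CD40 agonist replicate 3 had the lowest level of its group. The median log2 fold change over all genes was -0.01, a value that TMM scaling holds near 0.

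**Figure D1:**
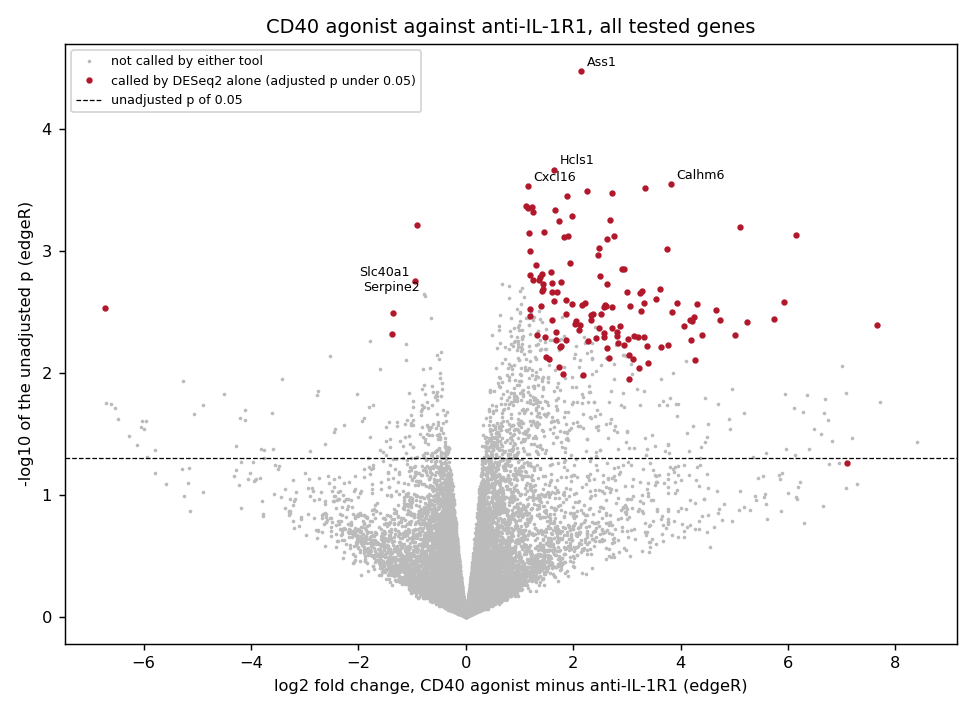
Each point is 1 of the 19436 tested genes, with the log2 fold change of CD40 agonist over anti-IL-1R1 on the x axis and -log10 of edgeR's unadjusted p on the y axis. Red points were called by DESeq2 (132 higher and 5 lower), edgeR called 0, and the red points lie almost all on the right, where CD40 agonist tumours had the higher level.

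A simpler count asked in how many genes the groups did not overlap. All 3 CD40 agonist libraries lay above all 3 anti-IL-1R1 libraries in 800 genes (4.12%) and below them in 842 genes (4.33%), so the direction was balanced by number. It was not balanced by size: among genes averaging 1 CPM or more, 195 of the 609 higher genes differed by at least 1 on the log2 scale (32.0%) and 66 by at least 2, against 72 of the 569 lower genes (12.7%) and 1 gene. The genes with large differences were therefore mostly those with more RNA in CD40 agonist tumours. In bulk tissue, more cells of a type and more RNA per cell cannot be told apart, and this holds for all lists below.

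Transcripts of the antibody targets and their ligands were looked at first. Cd40 (ENSMUSG00000017652, chromosome 2, 164897547 to 164914868, mm39) was at 14.8, 34.3 and 6.51 CPM in CD40 agonist tumours and at 4.68, 5.22 and 4.22 CPM in anti-IL-1R1 tumours. The groups did not overlap, although CD40 agonist replicate 3 was close to the untreated tumours at 5.19, 4.10 and 4.70 CPM. Its log2 fold change was 1.98 (SE 0.44), which passed DESeq2 (adjusted p 0.00307) and edgeR without CD40 agonist replicate 3 (adjusted p 0.00614), and not edgeR on all libraries. Cd40lg, the gene of the CD40 ligand, had 0 reads in each of the 6 libraries and was not tested.

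Il1r1 (ENSMUSG00000026072, chromosome 1, 40264240 to 40356417), the receptor gene itself, measured 76.9, 64.0 and 79.2 CPM with anti-IL-1R1 and 79.8, 61.7 and 67.2 CPM with CD40 agonist. These ranges overlapped and the log2 fold change was -0.08 (SE 0.15). Il1b (ENSMUSG00000027398, chromosome 2, 129206490 to 129213059), which encodes IL-1 beta, stood at 26.5, 31.4 and 16.8 CPM with CD40 agonist against 13.7, 8.95 and 13.5 CPM with anti-IL-1R1, without overlap (log2 fold change 1.05, SE 0.32, DESeq2 adjusted p 0.126). For Il1a, the IL-1 alpha gene, CD40 agonist replicates 1 and 2 had 7.45 and 4.25 CPM, replicate 3 had 0.423 CPM, and the anti-IL-1R1 tumours had 1.15, 0.670 and 0.606 CPM, so the groups overlapped. Il1rn, the gene of the natural receptor antagonist, was level between the groups, at 55.6, 93.9 and 77.5 CPM with CD40 agonist and 79.7, 72.4 and 80.7 CPM with anti-IL-1R1 (log2 fold change -0.04, SE 0.35).

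Across the IL-1 family, 18 of 22 tested ligands, receptors and adaptors had a higher mean level in CD40 agonist tumours, with a median log2 fold change of 0.37. In 3 of them the groups did not overlap (13.6%, against 4.12% of all genes): Il1b, Il33 and Il1rl1. Il33, an alarmin of epithelial and stromal cells, was at 63.0, 59.3 and 48.5 CPM with CD40 agonist and 42.7, 42.1 and 40.1 CPM with anti-IL-1R1. Il1rl1, its receptor, was at 25.7, 17.0 and 10.6 CPM against 9.99, 6.80 and 7.29 CPM. Il18bp, a secreted decoy for IL-18, reached 22.8 and 32.2 CPM in CD40 agonist replicates 1 and 2, while replicate 3 at 5.13 CPM lay within the anti-IL-1R1 range of 2.42 to 6.82 CPM.

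Genes of CD40 signalling and noncanonical NF-kB were higher on average in 25 of 27 cases, with a median log2 fold change of 0.71, and 8 of the 27 did not overlap (29.6%). DESeq2 called 2 of them, Cd40 and Il12b. Il12b, the p40 subunit of interleukin 12 and a classical product of CD40-stimulated dendritic cells, was at 0.497, 14.5 and 0.188 CPM with CD40 agonist and 0.157, 0.0705 and 0.0466 CPM with anti-IL-1R1. Most of that difference came from CD40 agonist replicate 2. The feedback inhibitors of NF-kB were more even. Nfkbia, which encodes the inhibitor IkB alpha, was at 102, 110 and 57.4 CPM against 51.0, 46.0 and 36.8 CPM (log2 fold change 1.01, SE 0.27). Tnfaip3, which encodes the ubiquitin-editing enzyme A20, was at 43.2, 68.7 and 39.4 CPM against 24.6, 21.3 and 25.9 CPM (log2 fold change 1.08, SE 0.29). In both genes every CD40 agonist library was above every anti-IL-1R1 library, and neither passed DESeq2 (adjusted p 0.0618 and 0.0614).

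The list of mediators that IL-1 and NF-kB induce had a higher mean level with CD40 agonist in 27 of 28 genes, with a median log2 fold change of 1.75, and 9 of the 28 did not overlap (32.1%). DESeq2 called 9. Ccl2, the main monocyte-attracting chemokine, was at 68.6, 93.0 and 13.1 CPM with CD40 agonist and 11.9, 9.20 and 7.92 CPM with anti-IL-1R1 (log2 fold change 2.59, SE 0.65, DESeq2 adjusted p 0.0193). Csf1, the growth factor of macrophages, was at 74.5, 93.2 and 41.5 CPM against 37.2, 21.3 and 33.3 CPM (log2 fold change 1.19, SE 0.28, DESeq2 adjusted p 0.0211). Saa3, an acute-phase gene of macrophages and stroma, was at 79.1, 88.4 and 3.55 CPM against 2.67, 3.07 and 1.12 CPM. In these 3 genes the groups did not overlap, but replicate 3 of CD40 agonist was far closer to anti-IL-1R1 than to the other libraries of its own group. Tnf, the tumour necrosis factor gene, did overlap: it was at 9.52, 10.5 and 0.517 CPM with CD40 agonist and 0.549, 0.564 and 0.419 CPM with anti-IL-1R1 (log2 fold change 3.74, SE 0.86, DESeq2 adjusted p 0.000395).

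Among the described lists, the interferon gamma list had the highest median after skeletal muscle. It was higher with CD40 agonist in all 29 tested members, with a median log2 fold change of 2.70, and the type I interferon list in all 34, with a median of 1.83. Groups did not overlap in 8 of the 29 (27.6%) and 9 of the 34 (26.5%), and DESeq2 called 15 and 12. CD40 agonist replicates 1 and 2 lay above all anti-IL-1R1 libraries in 29 and 29 of the 29 interferon gamma genes, and in 33 and 34 of the 34 type I genes. Replicate 3 did so in 8 and 9 genes, and it lay below all 3 untreated tumours in 21 and 26. Without replicate 3, groups did not overlap in 29 and 33 genes, beside 12.4% of all genes, while without replicate 2 the counts were 8 and 9, beside 6.46%. Such counts cannot fall when a library is left out. The medians can: they were 3.18 and 2.26 without replicate 3, and 2.18 and 1.25 without replicate 2.

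Cxcl10, the interferon-induced chemokine that attracts CXCR3-bearing T cells, was at 127, 193 and 17.9 CPM with CD40 agonist and 11.6, 10.2 and 5.82 CPM with anti-IL-1R1 (log2 fold change 3.61, SE 0.85, DESeq2 adjusted p 0.00307). The untreated tumours lay between, at 36.1, 22.98 and 25.1 CPM, and CD40 agonist replicate 3 was below them. Calhm6, a channel gene of the CALHM family, was at 5.67, 10.2 and 0.564 CPM against 0.261, 0.564 and 0.349 CPM. CD40 agonist replicate 3 and anti-IL-1R1 replicate 2 were equal to 3 digits. Nos2, the inducible nitric oxide synthase gene of activated macrophages, was at 55.0, 61.4 and 4.89 CPM against 4.86, 1.69 and 1.86 CPM, so its groups touched without overlapping. Ido1, which encodes a tryptophan-degrading enzyme, overlapped, with 10.6, 17.1 and 1.55 CPM against 0.993, 1.59 and 0.489 CPM.

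Among type I interferon-stimulated genes, the sensor of viral RNA Oas3 was at 12.4, 27.4 and 1.74 CPM with CD40 agonist and 1.33, 0.388 and 0.955 CPM with anti-IL-1R1, without overlap. Oas1a, of the same enzyme family, was at 9.19, 18.7 and 1.43 CPM against 2.07, 1.52 and 1.35 CPM. Irf7, a transcription factor that amplifies the type I response, was at 56.2, 91.0 and 12.5 CPM against 8.94, 8.00 and 14.0 CPM. In Oas1a and Irf7 the third CD40 agonist library lay inside the anti-IL-1R1 range. Dhx58, a helicase of the RNA-sensing pathway, was at 6.25, 12.8 and 2.85 CPM against 1.31, 2.89 and 1.84 CPM, and it overlapped by a narrow margin. Oas, Gbp, H2 and granzyme genes belong to families of similar sequence whose reads may be split between members, so values of single members are uncertain.

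The promoters of these genes are shown as a description of their sequence. RefSeq promoters (GRCm38.p6, 250 bases before to 50 bases after the start) were searched on both strands for GAAA, then 2 bases of any kind, then GAAA, the core of the interferon-stimulated response element (ISRE), to which IRF and STAT factors bind. Of all 32851 mouse promoters in the table, 3.44% hold it. Of the 8 genes named from both interferon lists, 5 had an entry, and 4 of these held a match, shown in capitals, 5' to 3' on the strand of the gene.
Cxcl10: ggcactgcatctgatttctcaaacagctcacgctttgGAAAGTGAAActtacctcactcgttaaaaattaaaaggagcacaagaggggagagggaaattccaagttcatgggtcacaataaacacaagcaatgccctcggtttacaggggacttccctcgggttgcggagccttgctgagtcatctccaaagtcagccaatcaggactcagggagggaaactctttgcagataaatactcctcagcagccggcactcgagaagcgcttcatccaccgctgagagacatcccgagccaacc
Calhm6: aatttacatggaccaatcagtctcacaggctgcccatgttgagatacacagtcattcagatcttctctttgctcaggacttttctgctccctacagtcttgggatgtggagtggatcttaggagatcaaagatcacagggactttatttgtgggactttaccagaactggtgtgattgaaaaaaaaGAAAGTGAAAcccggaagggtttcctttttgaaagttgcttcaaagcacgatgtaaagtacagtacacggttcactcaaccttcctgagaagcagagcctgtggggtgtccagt
Oas3: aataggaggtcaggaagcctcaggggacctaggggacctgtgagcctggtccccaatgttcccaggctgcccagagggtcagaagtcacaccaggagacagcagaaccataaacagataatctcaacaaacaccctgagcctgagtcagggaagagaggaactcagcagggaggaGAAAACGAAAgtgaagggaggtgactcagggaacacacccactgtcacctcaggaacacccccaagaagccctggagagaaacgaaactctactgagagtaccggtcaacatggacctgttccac
Oas1a: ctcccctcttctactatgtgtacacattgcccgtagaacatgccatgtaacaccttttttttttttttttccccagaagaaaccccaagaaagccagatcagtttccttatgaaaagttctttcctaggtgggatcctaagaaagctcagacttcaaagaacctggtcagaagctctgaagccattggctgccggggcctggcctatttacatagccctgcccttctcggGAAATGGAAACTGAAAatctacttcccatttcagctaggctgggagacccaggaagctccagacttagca

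These windows lie at chr5:92348840-92349139 (Cxcl10), chr10:34127923-34128222 (Calhm6), chr5:120777610-120777909 (Oas3) and chr5:120907476-120907775 (Oas1a), all on the minus strand of GRCm38.p6. The match begins 213 bases before the start in Cxcl10, 64 in Calhm6 and 75 in Oas3. Oas1a holds 2 matches that overlap each other, beginning 20 and 14 bases before the start. The promoter of Irf7 holds none of these letters in its window. A match is a description of the sequence and was not tested for binding. The genes came from interferon lists, so their share with a match is not a result about these libraries.

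**Figure D2:**
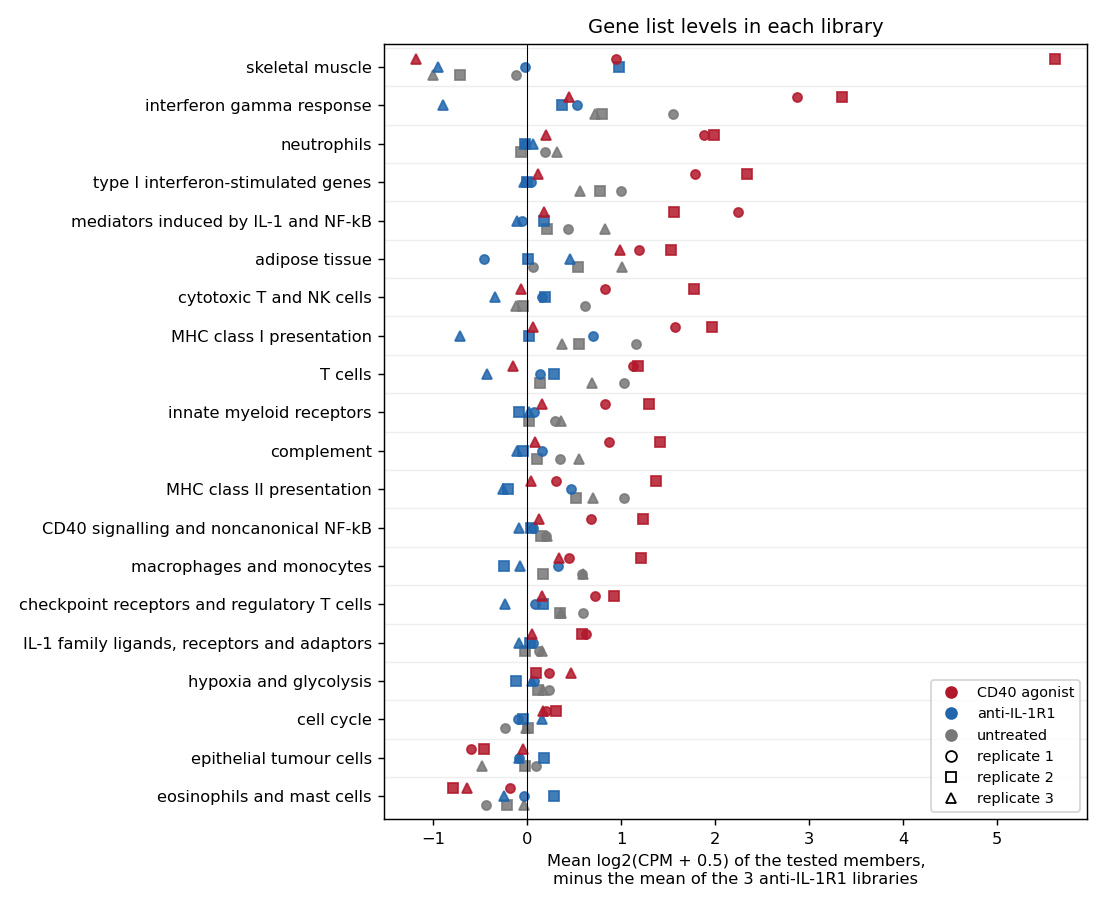
Level of each of 20 gene lists in each library, as log2(CPM + 0.5) averaged over tested members, minus the mean of the 3 anti-IL-1R1 libraries, with colours for groups and shapes for replicates. CD40 agonist replicates 1 and 2 stand to the right for the interferon, NF-kB mediator and neutrophil lists, CD40 agonist replicate 3 lies near the anti-IL-1R1 libraries there, and for skeletal muscle CD40 agonist replicate 2 is alone.

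In antigen presentation genes, the share without overlap was near that of all genes for class I, and edgeR called 0. The MHC class I list was higher with CD40 agonist in 21 of 21 members (median log2 fold change 1.29), yet the groups did not overlap in only 1 (4.76%, close to the 4.12% of all genes). That gene was Tapbpl, a peptide editor of class I molecules, at 47.9, 70.2 and 19.3 CPM against 17.4, 12.4 and 15.6 CPM with anti-IL-1R1 (log2 fold change 1.59, SE 0.39, DESeq2 adjusted p 0.00914). Psmb10, a subunit of the immunoproteasome, was at 188, 204 and 49.4 CPM against 67.7, 53.3 and 29.5 CPM, and replicate 3 fell inside the anti-IL-1R1 range. In this list CD40 agonist replicate 3 was within the anti-IL-1R1 range for 20 of 21 genes, while replicates 1 and 2 were above it for 18 and 19.

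Of 11 MHC class II genes, 9 had a higher mean with CD40 agonist (median log2 fold change 0.78), and the groups did not overlap in 1 (9.09%). Ctss, the protease that trims the class II invariant chain, was that gene, at 213, 392 and 177 CPM against 158, 124 and 115 CPM. Ciita, the master regulator of class II transcription, was at 15.9, 45.7 and 7.45 CPM against 8.13, 5.29 and 5.43 CPM (log2 fold change 1.87, SE 0.55, DESeq2 adjusted p 0.0226). The structural gene H2-Eb1 was at 158, 352 and 129 CPM against 175, 106 and 90.2 CPM, so here replicate 2 alone was above the anti-IL-1R1 range. Untreated tumours had 257, 192 and 142 CPM of H2-Eb1, above all anti-IL-1R1 tumours in replicates 1 and 2.

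Myeloid genes differed as well. Of 26 innate myeloid receptors, 24 were higher with CD40 agonist (median log2 fold change 0.94), and 9 did not overlap (34.6%). Clec5a, a lectin receptor of monocytes and neutrophils that signals through DAP12, was at 16.3, 17.7 and 5.78 CPM against 3.63, 3.28 and 3.87 CPM (log2 fold change 1.88, SE 0.40, DESeq2 adjusted p 0.00302). Tlr2, the receptor for bacterial lipopeptides, was at 13.5, 35.1 and 10.1 CPM against 7.74, 7.58 and 7.24 CPM. In both genes the anti-IL-1R1 libraries were nearly equal to each other and every CD40 agonist library was above them. Fpr2, a formyl peptide receptor of phagocytes, was at 17.3, 19.9 and 0.682 CPM against 0.706, 0.987 and 0.419 CPM, and so it rested on replicates 1 and 2.

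General markers of macrophages and monocytes differed less. They were higher in 18 of 21 cases, with a median log2 fold change of 0.58, and 5 did not overlap (23.8%). Ms4a4c, a membrane protein gene of mouse monocytes, was at 4.16, 9.20 and 1.93 CPM against 0.810, 0.987 and 0.466 CPM (log2 fold change 2.76, SE 0.64, DESeq2 adjusted p 0.00297). Msr1, the class A scavenger receptor, was at 52.4, 75.3 and 26.5 CPM against 25.2, 22.8 and 19.2 CPM. Itgam, which encodes the integrin CD11b, was at 42.8, 33.0 and 20.3 CPM against 16.3, 17.1 and 15.1 CPM. The pan-macrophage marker Cd68 overlapped, at 31.7, 67.7 and 22.1 CPM against 25.2, 14.8 and 17.3 CPM.

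The neutrophil list was higher in 13 of 14 tested members of its 19, with a median log2 fold change of 2.03, and 3 of the 14 did not overlap (21.4%). Acod1, which encodes the itaconate-producing enzyme of activated myeloid cells, was at 23.3, 66.7 and 1.76 CPM with CD40 agonist and 0.314, 0.740 and 0.280 CPM with anti-IL-1R1 (log2 fold change 6.14, SE 1.24, DESeq2 adjusted p 9.75e-06). The untreated tumours had 2.08, 0.904 and 0.825 CPM, so CD40 agonist replicate 3 was level with them. Mmp9, a secreted gelatinase, was at 684, 285 and 61.0 CPM against 51.9, 23.7 and 60.2 CPM, and replicate 3 cleared the highest anti-IL-1R1 library by little. Clec4e, the lectin receptor Mincle, was at 22.2, 82.3 and 1.81 CPM against 2.22, 2.15 and 1.42 CPM, which overlapped.

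T cell genes were higher with CD40 agonist in 20 of 21 members (median log2 fold change 1.11), and genes of cytotoxic T and NK cells in 18 of 20 (median 1.39). Groups did not overlap in 2 of the 21 (9.52%) and 2 of the 20 (10.0%), and DESeq2 called 0 in either list. Trac, the constant region of the T cell receptor alpha chain, was at 9.03, 3.77 and 1.90 CPM against 3.19, 2.33 and 1.33 CPM, with replicate 3 inside the anti-IL-1R1 range. Zap70, the kinase downstream of the receptor, was at 1.74, 3.61 and 1.53 CPM against 1.33, 1.09 and 0.745 CPM. Ccl5, a chemokine of activated T and NK cells, was at 24.0, 34.4 and 7.38 CPM against 4.94, 5.60 and 2.59 CPM (log2 fold change 2.33, SE 0.69, DESeq2 adjusted p 0.0895). Gzma, a granzyme, was at 5.65, 13.6 and 0.0705 CPM against 0.235, 0.352 and 0.0466 CPM. Of these 4 genes Zap70 and Ccl5 did not overlap.

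Checkpoint and regulatory T cell genes included 3 that DESeq2 called, Il2ra, Pdcd1 and Cd274, of 15 tested, and 13 of the 15 had a higher mean with CD40 agonist (median log2 fold change 0.49). Cd274, which encodes the checkpoint ligand PD-L1 and is induced by interferon gamma, was at 83.1, 95.1 and 14.8 CPM against 13.8, 11.1 and 6.13 CPM (log2 fold change 2.64, SE 0.75, DESeq2 adjusted p 0.0429). Pdcd1, which encodes the receptor PD-1, was at 1.47, 4.84 and 0.988 CPM against 0.288, 0.423 and 0.233 CPM, and the untreated tumours had 3.23, 1.13 and 1.05 CPM. The groups did not overlap in 4 of the 15 (26.7%), these 2 genes, Tnfrsf9 and Tnfrsf18. Il2ra, the high-affinity interleukin 2 receptor chain, was at 12.6, 5.14 and 1.15 CPM against 1.31, 1.30 and 0.769 CPM, which overlapped.

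Complement genes were also mostly higher. Of 20 tested, 16 had a higher mean with CD40 agonist (median log2 fold change 0.79), and in 2, C3 and Cfd, all CD40 agonist libraries lay above all anti-IL-1R1 libraries (10.0%). In 1 member they all lay below (5%, beside 4.33% of all genes). DESeq2 called 4 higher and 1 lower. C1ra, a protease of the classical pathway, was at 36.9, 43.3 and 8.56 CPM against 11.2, 7.72 and 7.13 CPM (log2 fold change 1.77, SE 0.45, DESeq2 adjusted p 0.011). Serping1, the inhibitor of that protease complex, was at 174, 130 and 33.5 CPM against 43.0, 38.0 and 24.4 CPM. In both genes replicate 3 lay inside the anti-IL-1R1 range.

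**Figure D3:**
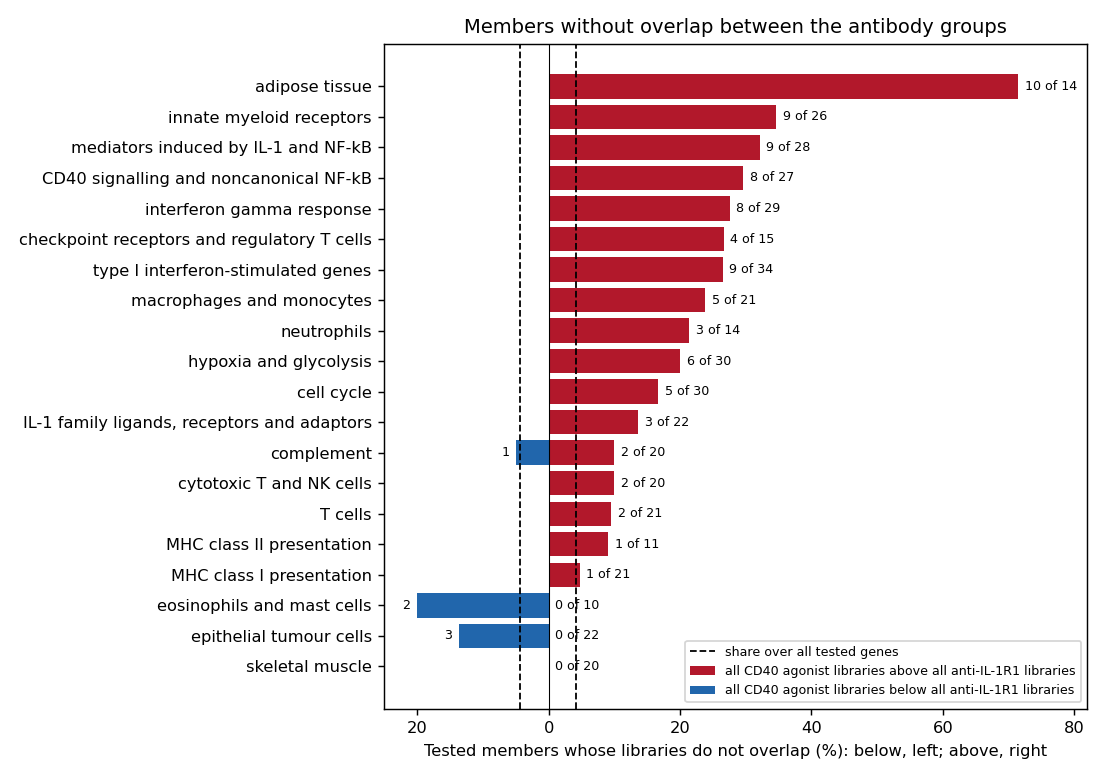
Share of each list's tested members in which all CD40 agonist libraries lay above (right, red) or below (left, blue) all anti-IL-1R1 libraries, with counts beside the bars. The dashed lines mark the share over all tested genes, 4.12% above and 4.33% below. Adipose tissue has the longest bar, 10 of 14, and skeletal muscle has none in spite of its high median.

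Adipose tissue genes showed the most regular separation of the groups. They did not overlap in 10 of 14 tested members (71.4%), and 12 of the 14 had a higher mean with CD40 agonist, with a median log2 fold change of 1.61. CD40 agonist replicates 1, 2 and 3 lay above all anti-IL-1R1 libraries in 11, 11 and 12 of the 14 genes, so here replicate 3 did not stand apart from its group. Cidec, a protein of fat droplets, was at 5.20, 3.02 and 2.54 CPM against 0.105, 0.247 and 1.21 CPM (log2 fold change 2.76, SE 0.93). Lpl, lipoprotein lipase, was at 14.7, 41.6 and 16.2 CPM against 9.23, 9.94 and 13.7 CPM. Retn, the resistin gene, was at 1.22, 1.28 and 0.776 CPM against 0, 0.0705 and 0.0233 CPM, and was the list's 1 gene that DESeq2 called. The list level was 1.97, 2.32 and 1.77 with CD40 agonist and 0.32, 0.79 and 1.24 with anti-IL-1R1, in mean log2(CPM + 0.5), and the untreated tumours at 0.85, 1.32 and 1.79 spanned both ranges in part. What part fat in the sampled tissue has in the comparison was not tested.

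Skeletal muscle genes had a median log2 fold change of 4.37 and a higher mean with CD40 agonist in 20 of 20 tested members, but 0 of the 20 were without overlap. Ckm, the muscle creatine kinase gene, was at 1.16, 116 and 0 CPM with CD40 agonist and 0, 0.529 and 0.256 CPM with anti-IL-1R1. Atp2a1, the calcium pump of fast muscle, was at 1.70, 360 and 0.047 CPM against 1.05, 1.55 and 0.186 CPM. Almost all of the difference thus lay in CD40 agonist replicate 2. Without that library, the log2 fold change of Atp2a1 was -0.01, 12 of the 20 muscle genes had a higher mean with CD40 agonist, and the list median was 0.18.

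Epithelial tumour cell genes pointed the other way. Only 3 of 22 tested members had a higher mean with CD40 agonist, the median log2 fold change was -0.25, and in 3 of the 22 all CD40 agonist libraries lay below all anti-IL-1R1 libraries (13.6%, beside 4.33% of all genes). Epcam, an adhesion molecule of epithelia, was at 1.70, 4.25 and 4.23 CPM with CD40 agonist and 10.9, 17.5 and 6.96 CPM with anti-IL-1R1 (log2 fold change -1.80, SE 0.67, DESeq2 adjusted p 0.128). The untreated tumours had 12.9, 4.15 and 2.56 CPM of Epcam and covered most of both ranges. Cdh1, which encodes E-cadherin, overlapped at 364, 399 and 510 CPM against 470, 556 and 560 CPM. DESeq2 and edgeR called 0 genes of this list, and 1 had an unadjusted edgeR p under 0.05. Without CD40 agonist replicate 3, 12 of the 22 lay below without overlap (beside 11% of all genes), and without replicate 2, 3 of the 22 did (beside 7.64%). CD40 agonist replicate 3 lay below all anti-IL-1R1 libraries in 5 of the 22 genes, and replicates 1 and 2 in 15 each.

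The list of eosinophil and mast cell genes was also lower with CD40 agonist, in 8 of 10 tested members of its 15 (median log2 fold change -0.93). Groups did not overlap in 2 of the 10 (20%). Cma1, a mast cell chymase, was at 2.13, 1.04 and 1.29 CPM with CD40 agonist and 3.61, 4.09 and 2.19 CPM with anti-IL-1R1, the lowest anti-IL-1R1 library being only just above the highest CD40 agonist library. Fcer1a, the chain of the IgE receptor that binds the antibody, was at 0.145, 0.0802 and 0.188 CPM against 0.366, 0.740 and 0.582 CPM. These are low levels, and neither gene passed DESeq2.

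Glycolysis and proliferation genes differed by small amounts, and for glycolysis the CD40 agonist libraries differed from each other. Of 30 hypoxia and glycolysis genes, 26 had a higher mean with CD40 agonist (median log2 fold change 0.24) and 6 did not overlap (20%). Hk2, hexokinase 2, was at 148, 182 and 180 CPM against 93.3, 97.7 and 130 CPM (log2 fold change 0.67, SE 0.17, DESeq2 adjusted p 0.0703). Adm, which encodes the hypoxia-induced peptide adrenomedullin, was at 60.4, 39.0 and 64.7 CPM against 30.9, 30.4 and 29.5 CPM. CD40 agonist replicate 3 lay above all anti-IL-1R1 libraries in 25 of the 30 genes, more than replicates 1 (17) and 2 (8), and the list median was 0.13 without it and 0.34 without replicate 2. Of 30 cell cycle genes, 29 had a higher mean (median 0.22) and 5 did not overlap (16.7%). Cdc6, a replication licensing factor, was at 14.7, 15.01 and 12.1 CPM against 9.93, 8.46 and 9.71 CPM.

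Several lists had medians near 0. These were 0.00 for myofibroblasts and extracellular matrix (12 of 24 higher), 0.05 for endothelium (11 of 20), 0.03 for the respiratory chain (12 of 20), -0.02 for immediate early genes (9 of 20), -0.01 for heat shock chaperones (7 of 14), 0.02 for p53 targets (10 of 18) and 0.05 for the circadian clock (8 of 16), all on the log2 scale. The median of all genes was -0.01.

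Beyond the lists, the genes with the lowest p were examined in each direction. Ass1 (ENSMUSG00000076441, chromosome 2, 31360219 to 31410684) stood first. It encodes argininosuccinate synthase, which rebuilds arginine from citrulline, and was at 37.0, 54.5 and 18.1 CPM with CD40 agonist and 10.4, 5.36 and 8.87 CPM with anti-IL-1R1 (log2 fold change 2.15, SE 0.35, DESeq2 adjusted p 9.75e-06). The untreated tumours, at 15.7, 12.6 and 15.6 CPM, lay between the groups, and CD40 agonist replicate 3 was above them. Nos2, described above, uses the arginine that Ass1 restores.

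Several of the others are genes of leukocytes. Hcls1 and Nckap1l encode regulators of the actin skeleton of blood cells. Hcls1 (chromosome 16, 36755345 to 36783574) was at 17.7, 42.4 and 13.7 CPM against 7.82, 8.14 and 7.52 CPM, and Nckap1l (chromosome 15, 103362221 to 103407237) at 28.9, 52.0 and 21.3 CPM against 15.3, 12.9 and 15.3 CPM. Bst1 (chromosome 5, 43976227 to 44001328), the surface enzyme CD157 of myeloid cells, was at 8.72, 15.3 and 3.46 CPM against 1.88, 1.90 and 1.96 CPM. In these genes the anti-IL-1R1 libraries were tightly grouped and all CD40 agonist libraries were above them.

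Genes of chemoattractants were among them. Cxcl16 (chromosome 11, 70344809 to 70350810), the ligand of CXCR6 on T cells, was at 126, 134 and 66.0 CPM against 48.9, 54.1 and 43.6 CPM (log2 fold change 1.15, SE 0.24). Ccl12 (chromosome 11, 81992671 to 81994226), a monocyte chemoattractant of mice, was at 19.4, 22.4 and 13.9 CPM against 8.65, 8.46 and 8.39 CPM. Rarres2 (chromosome 6, 48546630 to 48549723), which encodes chemerin, was at 21.5, 14.6 and 2.38 CPM against 2.20, 2.04 and 1.61 CPM. In Cxcl16 and Ccl12 replicate 3 was clear of the anti-IL-1R1 group, and in Rarres2 it was only just above it. Hcar2 (chromosome 5, 124001633 to 124003562), a receptor for niacin and the ketone body beta-hydroxybutyrate on myeloid and fat cells, was at 9.17, 4.76 and 1.32 CPM against 0.261, 0.987 and 0.280 CPM. Calhm6 and Clec5a, the remaining genes of the 10, are described above, and DESeq2 called all 10.

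Among the 10 genes with the lowest p on the other side, differences were smaller, with log2 fold changes from -0.46 to -1.78. Slc40a1 (chromosome 1, 45947228 to 45965683), which encodes the iron exporter ferroportin, was at 11.0, 14.3 and 16.3 CPM with CD40 agonist and 27.7, 33.4 and 18.9 CPM with anti-IL-1R1 (log2 fold change -0.94, SE 0.24, DESeq2 adjusted p 0.0423). The untreated tumours, at 24.6, 19.9 and 21.2 CPM, were nearer to anti-IL-1R1.

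Sfrp2 (chromosome 3, 83673628 to 83681623), a secreted modulator of Wnt signalling made by fibroblasts, was at 22.1, 17.5 and 29.1 CPM against 94.6, 34.2 and 48.4 CPM. Serpine2 (chromosome 1, 79771914 to 79838897), a secreted inhibitor of thrombin and other serine proteases, was at 257, 203 and 352 CPM against 472, 523 and 376 CPM. Mycn (chromosome 12, 12986094 to 12991915), a transcription factor of the MYC family, was at 18.4, 18.9 and 22.3 CPM against 37.6, 34.5 and 30.5 CPM. In all 3 genes the highest CD40 agonist library was replicate 3. Fam102b was the most even gene within anti-IL-1R1, with 267, 275 and 271 CPM, against 191, 181 and 220 CPM with CD40 agonist and 207, 220 and 208 CPM in untreated tumours, so it was the anti-IL-1R1 group that stood off. Slc40a1, Sfrp2 and Pyroxd2 were among the genes that DESeq2 called lower, and edgeR without CD40 agonist replicate 3 called Serpine2 alone (log2 fold change -0.99, adjusted p 0.0434).

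**Figure D4:**
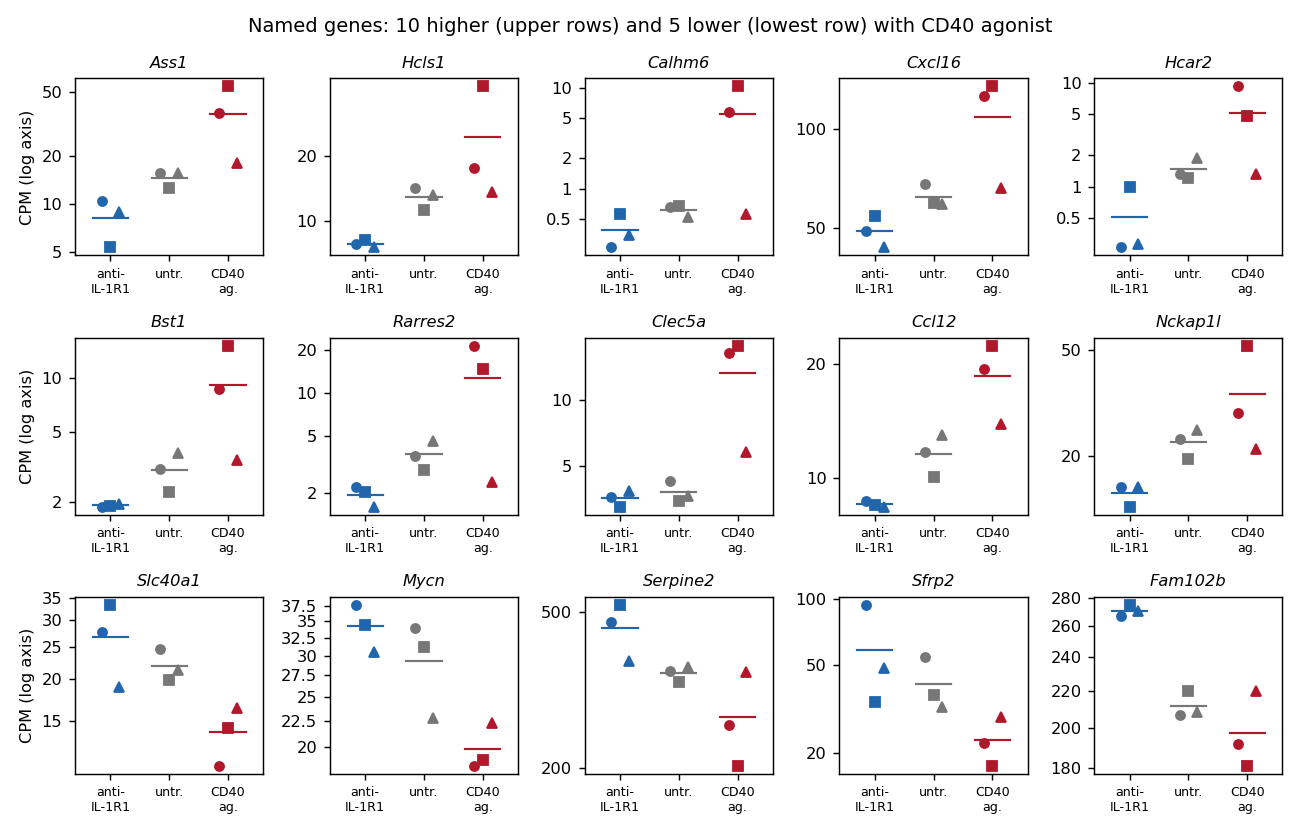
CPM in each library, on a log axis with its own range in each panel, for the 10 genes with the lowest p that were higher (upper rows) and 5 of those that were lower (lowest row) with CD40 agonist. Points are libraries (circle, square and triangle for replicates 1, 2 and 3) and lines are means of 3. All 15 genes have antibody groups without overlap, and the untreated mean lies between the antibody means in all 15.

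List medians moved with both libraries that stood apart. For T cell genes the median log2 fold change of 1.11 was 1.54 without CD40 agonist replicate 3 and 0.83 without replicate 2. For cytotoxic genes, 1.39 became 1.84 and 0.65, and for MHC class I genes 1.29 became 1.71 and 0.96. These lists thus had their smaller medians without replicate 2, as did MHC class II genes, where 0.78 became 1.05 and 0.21. The median of neutrophil genes moved little without replicate 3, from 2.03 to 2.08, but fell to 1.68 without replicate 2. NF-kB mediators went from 1.75 to 2.16 and 1.43, CD40 signalling genes from 0.71 to 1.00 and 0.49, and innate myeloid receptors from 0.94 to 1.18 and 0.59. The signs of these 8 medians were the same in all 3 fits. Without overlap were 16 of 21 T cell genes and 18 of 21 MHC class I genes once replicate 3 was left out, beside 12.4% of all genes. With all libraries the counts were 2 and 1, and they were also 2 and 1 without replicate 2, beside 6.46% of all genes.

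The untreated tumours give a scale for these differences. Among the 609 genes of at least 1 CPM with CD40 agonist above anti-IL-1R1 without overlap, the untreated mean lay between the 2 antibody means in 480 (78.8%), above both in 56 and below both in 73. Among the 569 genes with CD40 agonist below, it lay between in 400 (70.3%), and among all 14345 genes of that level in 35.0%. A gene picked for a wide gap between 2 groups holds a further mean inside the gap more often, so these shares are a description. For the 609 higher genes the median log2 fold change was 0.33 for CD40 agonist over untreated and -0.29 for anti-IL-1R1 over untreated, and these comparisons share the untreated libraries.

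Lists differed in how the gap was divided. For interferon gamma genes the medians were 1.70 for CD40 agonist over untreated and -0.97 for anti-IL-1R1 over untreated, and the untreated mean lay between in 29 of 29 genes. For type I interferon genes they were 1.00 and -0.78, with 33 of 34 between. Without CD40 agonist replicate 3 the CD40 agonist medians were 2.15 for interferon gamma and 1.43 for type I genes. Without replicate 2 they were 1.16 and 0.40. For T cell genes the medians with all libraries were 0.23 and -1.01, and for MHC class II genes 0.11 and -0.87. Without CD40 agonist replicate 3 the CD40 agonist medians of these lists were 0.55 and 0.37, and without replicate 2 they were -0.16 and -0.48. For neutrophil genes the medians with all libraries were 1.76 and -0.22, and for cytotoxic genes 1.15 and -0.09. Without replicate 2 the CD40 agonist median was 1.77 for neutrophil genes and 0.47 for cytotoxic genes. On 12 libraries edgeR called 0 genes in either comparison with untreated tumours, where the lowest adjusted p was 1.00. Same-numbered anti-IL-1R1 and untreated libraries correlated weakly across genes (r = 0.24, 0.25 and 0.14). Differently numbered libraries elsewhere reached 0.63 (CD40 agonist 2 with combination 1), so these values do not establish a pairing. With a replicate block on the 6 anti-IL-1R1 and untreated libraries, edgeR called 4 genes higher (0.0226%) and 23 lower (0.13%) with anti-IL-1R1. That fit had 2 residual degrees of freedom, and without the block edgeR called 0 on the same 6. The split of a gap between the antibodies was not tested.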

How the data were processed

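The deposited files are 3 tables with read counts per gene and library, per the file headers: CD40 agonist against untreated, anti-IL-1R1 against untreated, and both antibodies against CD40 agonist. The submitters' processing notes name the mm39 genome build and DESeq2 without versions; no aligner or counter is stated there. Tables were joined by gene ID (25619 genes in all 3). Counts that 2 tables share had 0 mismatches. Other per-sample and group columns of the authors, 42 in all and FPKM among them, were not used.

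Counts of all 12 libraries were fitted by group with edgeR 4.0.16 (quasi-likelihood test, TMM, filterByExpr, R 4.3.3), and CD40 agonist was contrasted with anti-IL-1R1 with Benjamini-Hochberg adjustment over 19436 genes at 0.05. DESeq2 1.42.0, limma 3.58.1, other scalings, filters and library sets, and a replicate block were the alternatives. The scripts were tested on simulated data. Depth was 27.8 to 47.9 M reads in the 6 libraries, so genes of low CPM rest on few reads.

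Members and gene lists were chosen with earlier results of these data known. As fewer than 5 genes were called in a direction, the 10 genes of lowest p in each direction with at least 1 CPM and a named symbol were named, with up to 4 members of lowest p in each described list, the antibody targets, and IL-1 ligands. C3, Cfd and Tnfrsf18, which complete counts, were named after their values were seen. Some items these rules would name are not reported here. Correlations across genes neither established nor excluded a pairing of same-numbered CD40 agonist and anti-IL-1R1 libraries. For anti-IL-1R1 and untreated, deviations from the group means correlated at r = 0.24, 0.25 and 0.14 for the 3 same-numbered pairs. Differently numbered pairs of these groups ran from -0.37 to 0.13. A pairing is not stated in the labels, and these values do not establish one.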

Additional observations from a re-analysis of the deposited data

How the results depend on the processing

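The calls depended on the tool and on CD40 agonist replicate 3, and the cause was not tested. edgeR called 0 genes with DESeq2's size factors, upper quartile factors, either other filter, the 6 libraries alone, or 9 libraries, and limma voom called 0. DESeq2 called 132 higher and 5 lower. Leaving out each of the 6 libraries in turn, edgeR called 0 to 152 higher and 0 to 1 lower, the upper values being those without CD40 agonist replicate 3. Of alternatives chosen after seeing the data, edgeR without the third library of both groups called 11 higher and 0 lower, DESeq2 on 6 libraries 127 and 5, and DESeq2 without CD40 agonist replicate 3 417 and 44. Same-numbered CD40 agonist and anti-IL-1R1 libraries correlated at r = -0.0074, -0.13 and 0.25 across genes. These values neither establish nor exclude a pairing. With the replicate block, edgeR called 0 genes on 12 libraries and 6 higher on 6 libraries with 2 residual degrees of freedom, and DESeq2, chosen after seeing the data, called 265 higher and 46 lower. Between anti-IL-1R1 and untreated, edgeR called 0 genes on 12 libraries with and without the block and 0 on their 6 libraries alone. With the block on those 6, also chosen after seeing the data, it called 4 higher and 23 lower.

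Signs were kept by 98 to 100 of the 100 named genes, where all were tested, and by the medians of all 20 described lists under the alternatives run. Exceptions follow. The log2 fold change of Il1rn ran from -0.22 to 0.14 when 1 library was left out. The log2 fold change of Il1r1 ran from -0.19 to 0.0013, and was 0.0011 without both muscle-rich libraries. These libraries were CD40 agonist replicate 2 and combination replicate 1. The log2 fold change of Atp2a1 ran from -0.0107 to 7.66, and was -0.0775 without both muscle-rich libraries.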

Other observations

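Lists of further cell types gave these values between CD40 agonist and anti-IL-1R1. Dendritic cell genes were higher on average with CD40 agonist in 12 of 17 tested members (median log2 fold change 0.58), the groups did not overlap in 1 (5.88%, beside 4.12% of all genes), and DESeq2 called 2, Sirpa and Bst2. B and plasma cell genes had no stable direction: 10 of 16 had a higher mean with CD40 agonist (median 0.69), but 3 of 16 without CD40 agonist replicate 2 (median -0.58) and 12 of 16 without replicate 3 (median 1.21). By limma voom the median log2 fold change of the list B and plasma cells was -0.03, and 0 genes were without overlap. Genes of alternatively activated macrophages were higher in 12 of 17 (median 0.25). In 4 of the 17, F13a1, Chil3, Arg1 and Stab1, the groups did not overlap (23.5%, beside 4.12% of all genes). Inflammatory fibroblast genes were higher in 14 of 16 (median 0.62), with Lif and Pdgfra without overlap (12.5%). Genes of matrix proteases and their inhibitors were higher in 16 of 20 (median 0.33). Without overlap, 3 of these 20 lay above (15%) and 1 below (5%, beside 4.33% of all genes). These genes were named after their values were seen.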
